A study of Mus musculus with 12 samples.

Results

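Ribosome biogenesis and MYC-driven growth are represented here by 43 genes, taken by symbol from a fixed list, out of 37086 genes counted in 12 mouse RNA libraries. All 43 were found, and all 43 were among the 15662 genes that passed a filter on low counts. The libraries fall into 4 groups of 3: haematopoietic stem cells (HSC) and granulocyte and macrophage precursors (preGM), each from wild-type (WT) C57bl/6 mice or from the strain Col1a1-MLL/ENL. HSC were sorted as Lin- Sca1+ ckit+ CD48- CD150+ cells, and preGM as Lin- Sca1- ckit+ cells that lacked CD150, CD105, CD41 and CD16/32. MLL-ENL, found in acute leukaemia, joins part of the histone methyltransferase MLL to the chromatin reader ENL. Every group, WT included, spent 48 h in culture, where OptiMEM and 10% FCS held 1 µg/ml doxycycline, 5 ng/ml each of G-CSF and IL3, and 10 to 50 ng/ml SCF. No library without doxycycline was analysed here, so an effect of the fusion and other differences between the strains cannot be told apart, and "with MLL-ENL" is meant in that sense below. Nothing in the labels ties replicates to separate mice or cultures, so a p-value here reflects library-to-library spread that could be technical.

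Ribosomes are made in the nucleolus. RNA polymerase I transcribes the long precursor of the ribosomal RNAs, small nucleolar ribonucleoprotein particles (snoRNPs) guide its chemical modification, and assembly factors fold, cut and export the small (40S) and large (60S) subunits. The transcription factor MYC, bound to DNA with its partner MAX at the E-box CACGTG, is known to raise many genes of this pathway together with enzymes of polyamine and pyrimidine synthesis. Blood stem cells are known for a low rate of protein synthesis, and committed myeloid precursors for a higher one. By role, the 43 genes are 7 nucleolar organisers and helicases, 3 core proteins of box C/D snoRNPs, 3 of box H/ACA snoRNPs, 10 factors of 40S assembly, 14 of 60S assembly, 3 RNA polymerase subunits and 3 enzymes of polyamine and pyrimidine synthesis.

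The promoters are shown first because the list is named for a factor that binds the E-box. RefSeq promoter windows (GRCm38.p6, 250 bases before to 50 bases after each transcript start) were at hand for 37 of the 43 genes. The letters CACGTG, which read the same on both strands, stood in the window of 8 of these 37 genes (21.6%), beside 2187 of 27025 genes with a window (8.09%). Counted by window, the share was 20% of 40 member windows and 7.15% of all 32851 windows of that length. Within the 100 bases before the start the order was the other way round, with 2.7% of members and 3.7% of all genes. A match describes letters in a window and does not show that a factor was bound. The stretches below are the 8 matches, 5′ to 3′ on the gene's own strand, with CACGTG in capitals. Their positions, counted from base 1 at the start of the transcript, are 38 to 43 in Utp20 (chr10:88826765-88826787, minus strand), 38 to 43 in Pno1 (chr11:17211540-17211562, minus), 25 to 30 in Tsr1 (chr11:74898094-74898119, plus) and 18 to 23 in Wdr43 (chr17:71616222-71616247, plus), all 4 being factors of 40S assembly. In 60S assembly they are -60 to -55 in Nop2 (chr6:125131813-125131838, plus), 3 to 8 in Pes1 (chr11:3963967-3963992, plus) and 35 to 40 in Grwd1 (chr7:45830740-45830765, minus), and in the nucleolar protein Mybbp1a they are 41 to 46 (chr11:72441357-72441376, plus). Apart from Nop2, each match therefore lay downstream of the start.
Utp20: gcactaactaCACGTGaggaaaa
Pno1: tacaaccacgCACGTGttcctct
Tsr1: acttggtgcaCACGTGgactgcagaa
Wdr43: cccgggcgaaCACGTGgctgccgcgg
Nop2: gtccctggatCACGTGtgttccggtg
Pes1: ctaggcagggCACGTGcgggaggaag
Grwd1: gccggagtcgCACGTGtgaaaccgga
Mybbp1a: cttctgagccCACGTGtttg

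Depth was 14.5 to 23.4 megacounts per library in HSC and 34.7 to 50.3 in preGM. The lowest count of any member in any library was 196 (Npm3), so no member was near the limit of detection. Of the preGM libraries, 2 stood apart. WT preGM replicate 2 had the lowest scaling factor by TMM, the trimmed mean of log ratios between libraries (0.619, with the others from 0.753 to 1.35) and the most counts on rRNA-like genes (1.78%, with the others from 0.338% to 0.689%). MLL-ENL preGM replicate 1 was rich in introns, with 3.51 per 100 gene counts where the other MLL-ENL preGM libraries had 1.73 and 1.49. Results that rest on these libraries are given with and without both. Marker transcripts were summed in CPM (counts scaled to a common library total), without TMM. They describe the cells after 48 h of culture and cannot check the sort itself. The 9 HSC markers, with Slamf1, Procr and Mecom among them, summed to between 591 and 1038 CPM in HSC libraries. In preGM libraries they summed to between 40.5 and 134 CPM. For 8 myeloid precursor markers, with Mpo and Elane among them, the sums were 687 to 862 in HSC and 10330 to 22556 in preGM. Kit and Cd34, 2 of these 8, went the other way in WT. Kit, which encodes the sorted antigen ckit, read 132, 105 and 95.7 CPM in WT HSC and 17.5, 18.9 and 21.3 CPM in WT preGM. Cd34 read 309, 335 and 239 CPM and then 27.9, 22.5 and 40.3 CPM. With MLL-ENL, Kit read 139, 145 and 170 CPM in HSC and 105, 23.9 and 25 CPM in preGM, and Cd34 overlapped. Some transcripts of antigens that the gates select against were present: Cd48 read 127, 162 and 102 CPM in WT HSC and 8.62, 5.54 and 8.61 CPM in MLL-ENL HSC, and Fcgr3, which encodes CD16, read 178, 84.6 and 198 CPM in WT preGM and 24.1, 34.3 and 35.7 CPM in MLL-ENL preGM. Fcgr2b (CD32) overlapped in preGM, at 142, 52.5 and 147 CPM in WT and 126, 124 and 126 CPM with MLL-ENL. Itga2b (CD41) and Eng (CD105) were higher with MLL-ENL in preGM. Itga2b read 2.59, 2.39 and 3.29 CPM in WT and 30.6, 6.37 and 7.78 CPM with MLL-ENL. Eng read 2.16, 2.3 and 2.12 CPM and then 8.71, 3.49 and 3.09 CPM. In bulk samples, fewer cells of a type and less RNA per cell cannot be told apart. Nor can differences present at the sort and those that arose in culture.

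Per exon base counted, the 43 genes were highly expressed in every group. The RPKM scale used here divides gene counts by library size and by the exon bases counted for the gene. These bases are drawn from all its transcripts, so they can exceed the length of a single transcript. On this scale the members' median level was 32.7 and 27.6 in HSC (WT, then MLL-ENL) and 35.4 and 60.6 in preGM. The median of all tested genes was 3.37, 4.01, 1.85 and 2.39. The histone chaperone nucleophosmin (Npm1) ranked first in all 4 groups, at 1444 ± 46.6, 994 ± 18.9, 2206 ± 883 and 2874 ± 392 RPKM (mean ± SD, n = 3). Nhp2, an H/ACA core protein, ranked second, at 455 ± 53.9, 281 ± 18.5, 952 ± 192 and 806 ± 210 RPKM, with the C/D core protein Nop58 next, at 239 ± 40.8, 183 ± 18.4, 223 ± 64.8 and 261 ± 40.5 RPKM. The libraries of these 3 genes did not overlap with each other in any group. Before division by exon bases the order was another one. In WT HSC Ncl (8257 exon bases) had a mean of 1361 CPM by library size. Nhp2 (1110 exon bases) had 505 CPM there and Nop58 (1976 exon bases) 473 CPM. Among the lowest stood Utp20, a scaffold of the early small subunit particle, at 4.41 ± 0.0598, 2.61 ± 0.429, 2.87 ± 0.0419 and 4.42 ± 1.82 RPKM, and Polr1b, the second largest subunit of RNA polymerase I, at 3.83 ± 0.652, 3.55 ± 0.499, 2.16 ± 0.309 and 7.47 ± 7.2 RPKM. Utp20 and Polr1b overlapped in every group except WT preGM, and with MLL-ENL in preGM the Polr1b mean rested on replicate 1 (15.8, against 2.77 and 3.88 RPKM). In MLL-ENL HSC Rrp12 (3.09 ± 0.419 RPKM) lay between them. Npm1 has processed pseudogenes, so its reads may be shared with near-identical copies.

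Across libraries the members' median level put MLL-ENL HSC lowest, WT HSC next and both preGM groups highest under TMM, and with library size alone 1 WT preGM library fell out of this order. Each gene's log2 CPM after TMM scaling was centred on its own mean over the 12 libraries, and the median over the 43 members was taken. It was -0.34, -0.29 and -0.34 in the WT HSC libraries, and -0.81, -0.69 and -0.81 with MLL-ENL in HSC, where 0 of the 43 members lay above their own mean in any library. In preGM the medians were 0.53, 0.20 and 0.64 for WT and 0.65, 0.52 and 0.65 with MLL-ENL. The low value of 0.20 belongs to WT preGM replicate 2, and the HSC libraries did not overlap with the preGM libraries.

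**Figure D1:**
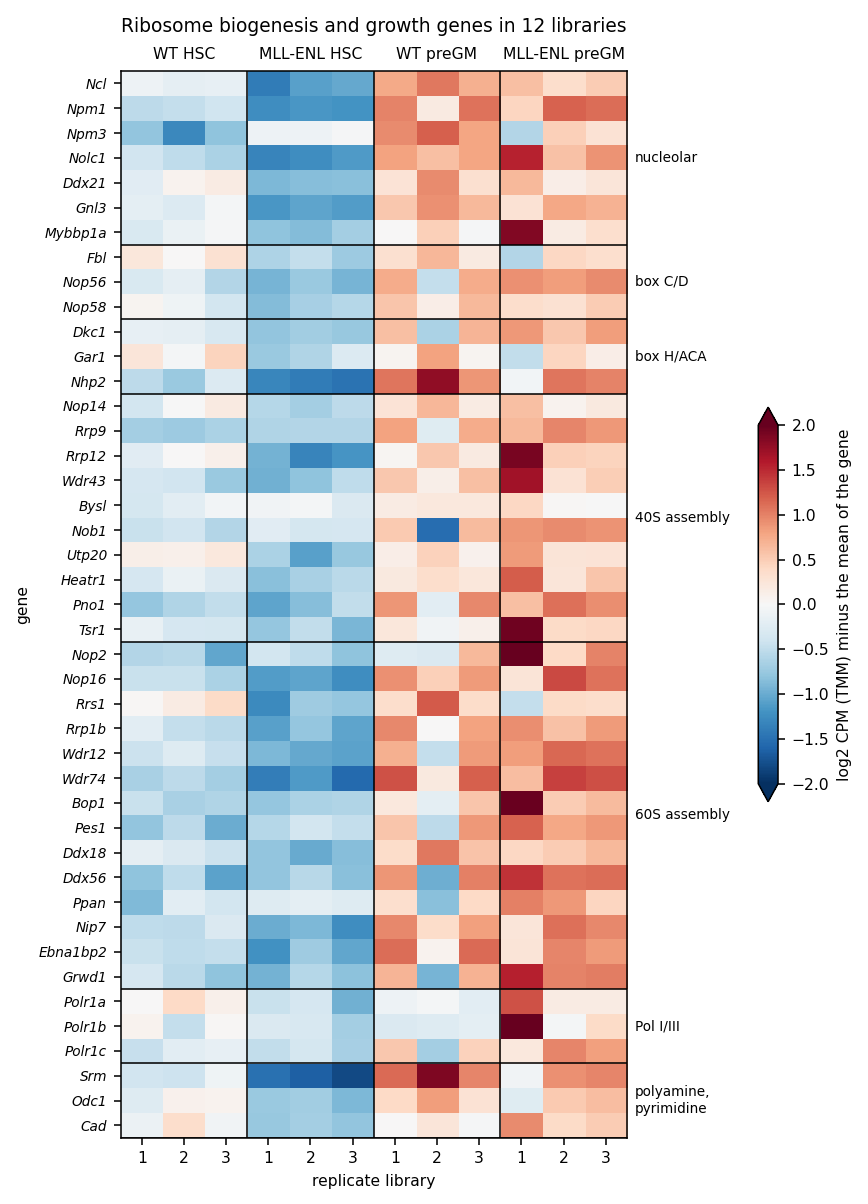
Heat map of log2 CPM (TMM scaling) minus each gene's mean over the 12 libraries, for the 43 genes (rows, ordered by role) in the 12 libraries (columns, by group and replicate). The MLL-ENL HSC columns are below the mean for all 43 genes. WT preGM replicate 2 and MLL-ENL preGM replicate 1 differ from their neighbours in many genes, most in Nob1 and Polr1b. Against the mean of the others of the group, 5 members were above 1.5 times and 15 below 1/1.5 in the former, and 11 and 13 in the latter.

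The choice of scaling shifts all genes of a comparison of 2 groups in the same direction, by amounts that differ somewhat between genes. With library size alone in place of TMM, the median log2 difference over all 15662 genes moved from 0.02 to 0.21 for MLL-ENL against WT HSC, from 0.08 to 0.41 for MLL-ENL against WT preGM, from -0.03 to -0.73 for preGM against HSC in WT, and from 0.00 to -0.56 for preGM against HSC with MLL-ENL. The members' median relative to that of all genes hardly moved: -0.60 under both scalings, 0.17 and 0.19, 0.82 and 0.87, and 1.65 and 1.64, in the same order. The share of calls that were higher moved from 77.4% to 88%, from 54.6% to 74.9%, from 47.8% to 16.2% and from 49.1% to 18.1%. Members are therefore compared with all genes below. On the library-size scale the members' medians were -0.11, -0.01 and -0.18 in WT HSC and -0.38, -0.29 and -0.39 with MLL-ENL. In preGM they were 0.13, -0.49 and 0.30 for WT and 0.73, 0.20 and 0.40 with MLL-ENL. On that scale WT preGM replicate 2 lay below all HSC libraries.

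**Figure D2:**
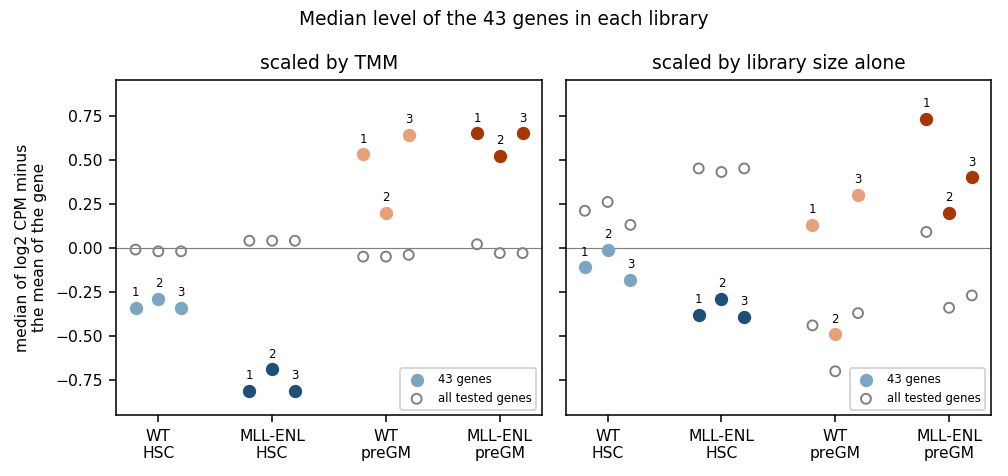
Median over the 43 members of centred log2 CPM in each of the 12 libraries (filled points), with the median over all 15662 tested genes (open circles), under TMM (left) and under library size alone (right). Under TMM the MLL-ENL HSC libraries lie lowest, at -0.81, -0.69 and -0.81, and all preGM libraries lie above all HSC libraries, but under library size alone WT preGM replicate 2 is lowest, at -0.49.

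In stem cells, the members lay below the rest of the transcriptome with MLL-ENL, and 5 of the 43 fell: Srm, Utp20, Gnl3, Ncl and Rrs1. These encode spermidine synthase, a 40S assembly scaffold, the nucleolar GTPase nucleostemin, nucleolin and a factor that helps to load the 5S particle onto the 60S subunit. No member rose (0 of 43; 1 at an unadjusted p under 0.05, Npm3, and 1 by DESeq2). Across all genes, 0.932% were called lower and 3.19% higher by the edgeR quasi-likelihood test with TMM (adjusted p under 0.05), so the members' calls went against the majority of the calls. The members' median log2 difference was -0.57, against 0.02 for all genes, 35 of 43 values were negative, and 22 members were lower at an unadjusted p under 0.05. With library size alone 3 members were lower (Srm, Gnl3 and Ncl; 0.504% of all genes) and 1 was higher (Npm3; 3.7%), and the median was -0.39 against 0.21. The sign turned from negative to positive in 2 members, Bop1 (-0.10 to 0.10) and Pno1 (-0.17 to 0.02), neither of which passed a test.

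Srm (4:148591503-148594993 on GRCm38) makes spermidine, the polyamine that growing cells need. It stood at 78.8, 77.4 and 97.1 CPM in the WT HSC libraries and at 36.6, 33.1 and 29.3 CPM with MLL-ENL. The groups did not overlap, and the log2 difference was -1.35 ± 0.31 (SE, edgeR, adjusted p = 0.0213). Ncl (1:86344719-86359400), an RNA-binding protein that coats nascent ribosomal RNA, read 1201, 1137 and 1154 CPM in WT HSC and 491, 607 and 638 CPM with MLL-ENL, a difference of -1.01 ± 0.26 (edgeR, adjusted p = 0.0384). Gnl3 (14:31012433-31019152) read 250, 235 and 276 CPM in WT and 127, 137 and 132 CPM with MLL-ENL, a difference of -0.94 ± 0.24 (edgeR, adjusted p = 0.0367). In both genes every MLL-ENL library lay well under the lowest WT library. Utp20 (10:88746607-88826804), whose promoter match is printed above, read 32.7, 32.3 and 35 CPM in WT and 19.6, 14.3 and 17.8 CPM with MLL-ENL (-0.95 ± 0.23, edgeR adjusted p = 0.03; with library size alone -0.75, adjusted p = 0.143). Rrs1 (1:9545408-9547455), a gene of 1 exon, read 30.4, 33.4 and 39.2 CPM in WT and 12.4, 18.2 and 17.5 CPM with MLL-ENL (-1.10 ± 0.30, edgeR adjusted p = 0.0489; with library size alone -0.90, adjusted p = 0.0616). For these 2 genes the library-size scaling ended the call without turning its direction.

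Npm3, a small relative of nucleophosmin, lay on the other side. It read 12.6, 8.88 and 12.4 CPM in WT HSC and 20.2, 20.2 and 21.3 CPM with MLL-ENL, with no overlap, and the difference was 0.87 ± 0.27 (edgeR, adjusted p = 0.0859; with library size alone 1.07, adjusted p = 0.0207). Npm1, in contrast, read 3170, 3264 and 3447 CPM in WT and 1924, 2030 and 1995 CPM with MLL-ENL, a difference of -0.73 ± 0.32 that did not pass (adjusted p = 0.231). The relatives Npm1 and Npm3 thus lay on opposite sides of WT in the same libraries.

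By role, the lower levels in stem cells were spread over the pathway. Groups that did not overlap, with MLL-ENL lower, were found for 29 of 43 members (17% of all genes) and with MLL-ENL higher for 3, namely Npm3, Rrp9 and Nob1 (17.8% of all genes); with library size alone they were 22 (9.89%) and 6 (26.5%). The 29 were 6 of 7 nucleolar organisers, all 3 C/D and all 3 H/ACA core proteins, 5 of 10 factors of 40S assembly, 8 of 14 of 60S assembly, 1 of 3 polymerase subunits (Polr1a) and all 3 metabolic enzymes. Median log2 differences ran from -0.81 for the metabolic enzymes, -0.76 for H/ACA and -0.73 for nucleolar organisers to -0.34 for 40S assembly and -0.31 for polymerase subunits. Among the snoRNP proteins, the methyltransferase fibrillarin (Fbl) read 123, 106 and 130 CPM in WT and 68.5, 75.7 and 63.5 CPM with MLL-ENL (adjusted p = 0.119, edgeR). Its partner Nop56 read 409, 446 and 338 CPM in WT and 267, 302 and 265 CPM with MLL-ENL (adjusted p = 0.389, edgeR). The pseudouridine synthase dyskerin (Dkc1) read 332, 330 and 298 CPM in WT and 215, 230 and 221 CPM with MLL-ENL (adjusted p = 0.378, edgeR). All 3 separated the groups, and none passed the test over all genes.

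Of the metabolic enzymes other than Srm, Odc1, the rate-limiting enzyme of polyamine synthesis, read 116, 148 and 147 CPM in WT HSC and 83.8, 86.3 and 74.9 CPM with MLL-ENL (-0.74 ± 0.26, edgeR adjusted p = 0.135). Cad, which opens pyrimidine synthesis, read 54.4, 75.6 and 56.2 CPM in WT and 35.1, 37 and 34.1 CPM with MLL-ENL (-0.81 ± 0.23, edgeR adjusted p = 0.0568). Polr1b overlapped, with 21.6, 14.8 and 20.9 CPM in WT and 16.8, 16.6 and 12.9 CPM with MLL-ENL. At the other end of the module were genes whose HSC groups overlapped, such as Bysl, Nop2, Pes1, Ddx56 and Ppan, which are named after their values were seen. Their log2 differences lay between 0.06 and 0.29.

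How many members passed in stem cells depended on the libraries that set the spread. The fit shares 1 estimate of the spread over all groups, and members varied more in preGM: the median coefficient of variation was 10.5% for WT and 9.34% for MLL-ENL in HSC, and 25.5% and 26% in preGM. Without both preGM libraries that stood apart, 29 members were lower (11.1% of all genes) and 1, Npm3, was higher (10.2%), from the same 6 HSC libraries. The SE of Srm went from 0.31 to 0.12 and its adjusted p to 1.02e-05, while its log2 difference stayed at -1.35. With the HSC libraries fitted alone, 27 members were lower (8.7% of all genes) and 1 was higher (8.99%), and with DESeq2 11 were lower (1.92%) and 1 higher (3.77%). In the other direction, leaving out 1 HSC library at a time left 0 lower members, or 1 without WT HSC replicate 2. Leaving out 1 preGM library left 2 without WT replicate 1, WT replicate 3 or MLL-ENL replicate 3, 4 without MLL-ENL replicate 2, 9 without WT replicate 2 and 15, with 1 higher, without MLL-ENL replicate 1. The members' median log2 difference stayed between -0.61 and -0.52 in these fits. Shares over all genes are not given for fits with 1 library left out or at an unadjusted p, in this or any other comparison. The share called lower in HSC moved from 0.932% to 11.1% without both libraries. Such counts of members therefore do not show by how much the members differ from other genes.

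**Figure D3:**
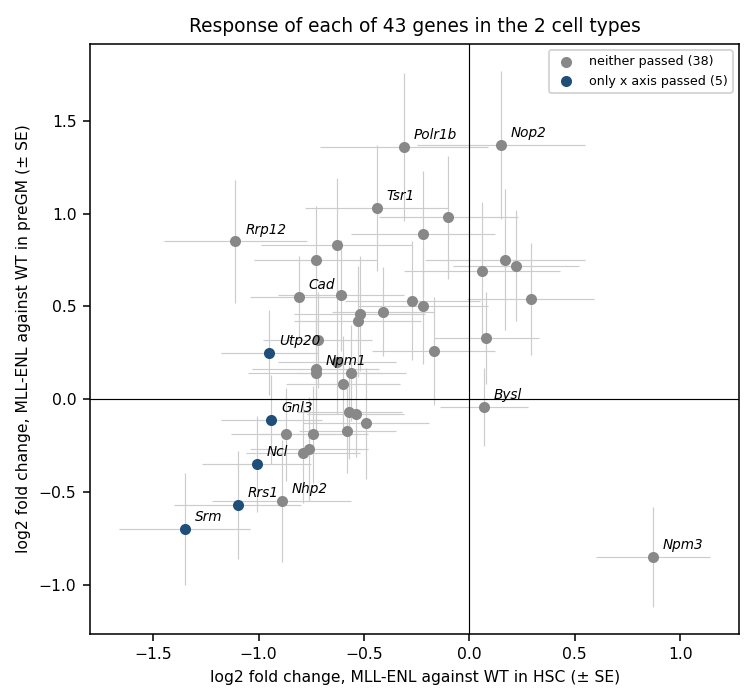
Log2 difference between MLL-ENL and WT in HSC (horizontal) and in preGM (vertical) for the 43 members under TMM, with bars of 1 SE and colours for which comparison a member passed. All 5 called members (Srm, Utp20, Gnl3, Ncl and Rrs1) lie left of 0, and no member passed in preGM; with library size alone Npm3 passed in HSC, Polr1b passed in preGM, and Utp20 and Rrs1 no longer passed.

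In preGM, no member differed between MLL-ENL and WT by the edgeR test with TMM (0 higher and 0 lower of 43, beside 3.7% and 3.08% of all genes). At an unadjusted p under 0.05, 10 members were higher and 2 lower. DESeq2 called 3 higher and 1 lower (3.96% and 3.3% of all genes), and library size alone called 1 higher, Polr1b (5.63%), and 0 lower (1.88%). The median log2 difference was 0.26, against 0.08 for all genes, and 0.14 against 0.04 once both libraries that stood apart were left out, with 0 higher and 0 lower (3.52% and 3.62% of all genes). Leaving out 1 library gave 0 to 4 higher members (4 without MLL-ENL replicate 2, 3 without MLL-ENL replicate 3, 1 without WT replicate 3) and 1 lower without MLL-ENL replicate 2, and 0 calls otherwise.

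The preGM values that came nearest to the threshold were carried by MLL-ENL replicate 1. Polr1b read 16.8, 17.3 and 18.1 CPM in WT preGM and 86.7, 20.1 and 26.8 CPM with MLL-ENL (1.36 ± 0.40, edgeR adjusted p = 0.0565; with library size alone 1.79, adjusted p = 0.0465; without both libraries 0.43, adjusted p = 0.377). Nop2, an RNA methyltransferase of 60S assembly named after its values were seen, read 57.6, 56.2 and 108 CPM in WT and 344, 90.7 and 137 CPM with MLL-ENL (1.37 ± 0.40, edgeR adjusted p = 0.054; without both libraries 0.46, adjusted p = 0.441). In both genes MLL-ENL replicate 1 lay far above every other library of either group. Npm3 went the other way, with 41.7, 49.8 and 37.3 CPM in WT and 14.4, 30.3 and 26.5 CPM with MLL-ENL (-0.85 ± 0.27, edgeR adjusted p = 0.0673; without both libraries -0.48, adjusted p = 0.182).

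The 5 genes that fell in stem cells gave no call in preGM. Ncl read 2181, 2686 and 2109 CPM in WT and 1961, 1659 and 1835 CPM with MLL-ENL (-0.35 ± 0.26, edgeR adjusted p = 0.41). For Srm the values were 225, 376 and 203 CPM in WT and 98.1, 194 and 202 CPM with MLL-ENL (-0.70 ± 0.30, edgeR adjusted p = 0.178). Under TMM the groups of both genes did not overlap, with MLL-ENL lower, although those of Srm were separated by little; with library size alone they overlapped in both. Gnl3 read 412, 538 and 445 CPM in WT and 350, 485 and 461 CPM with MLL-ENL, Utp20 33.2, 41.6 and 32.1 CPM and then 54.5, 36 and 36.6 CPM, and Rrs1 38.3, 69.8 and 38.5 CPM and then 21.5, 39 and 38 CPM. In these 3 genes the groups overlapped.

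Of the other members followed in every group, Npm1 read 9073, 5175 and 9624 CPM in WT preGM and 6113, 10338 and 9821 CPM with MLL-ENL, a spread that left a difference of 0.14 ± 0.32. Fbl read 132, 167 and 119 CPM in WT and 70, 140 and 133 CPM with MLL-ENL. Nop56 read 848, 364 and 852 CPM in WT and 955, 903 and 975 CPM with MLL-ENL. The low value of Nop56 in WT came from replicate 2, as did that of Dkc1, which read 567, 241 and 596 CPM in WT and 681, 538 and 664 CPM with MLL-ENL. Odc1 read 184, 250 and 171 CPM in WT and 118, 200 and 213 CPM with MLL-ENL, and Cad 59.2, 70.1 and 58.3 CPM in WT and 114, 77.4 and 84.3 CPM with MLL-ENL. None of these 6 passed the edgeR test, with adjusted p from 0.154 (Cad) to 0.821 (Npm1). Groups that did not overlap were found with MLL-ENL higher for 9 members (15.1% of all genes) and lower for 3 (12.8%); with library size alone they were 18 (27.2%) and 1 (7.68%).

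The response to MLL-ENL differed between the cell types in 3 members by the interaction contrast, which takes the preGM response minus the HSC response. Rrp12 and Cad had the larger value in preGM (2 of 43, beside 1.07% of all genes) and Npm3 the smaller (1 of 43, beside 2.06%). The members' median was 0.71, against 0.07 for all genes, and 41 of 43 values were positive. The counts with library size alone were 1 (Cad; 0.862% of all genes) and 1 (Npm3; 1.4%), and with DESeq2 6 (1.69%) and 1 (2.83%). For Npm3 (19:45747734-45749591) the contrast was -1.72 ± 0.38 (edgeR, adjusted p = 0.0181; with library size alone -1.64, adjusted p = 0.016), made of the higher levels in MLL-ENL HSC and the lower levels in MLL-ENL preGM given above. Cad (5:31054780-31078479) gave 1.36 ± 0.32 (edgeR, adjusted p = 0.0255; with library size alone 1.54, adjusted p = 0.0494). Rrp12 (19:41862851-41896173), an export factor of the ribosomal subunits, gave 1.96 ± 0.47 (edgeR, adjusted p = 0.0302; with library size alone 2.19, adjusted p = 0.0688). In HSC it read 18.8, 22.1 and 23.7 CPM for WT and 11.4, 8.88 and 9.69 CPM with MLL-ENL, and in preGM 22.6, 31.9 and 25.1 CPM for WT and 82.1, 30.8 and 30.2 CPM with MLL-ENL. The highest Rrp12 value again belongs to MLL-ENL preGM replicate 1.

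All 3 contrasts kept their sign in every setting tried, from -1.94 to -1.35 for Npm3, 1.18 to 1.54 for Cad and 1.31 to 2.20 for Rrp12. With 1 library left out in turn, Npm3 passed in 10 of 12 fits (the exceptions being MLL-ENL HSC replicate 3 and WT HSC replicate 2; adjusted p from 0.00892 to 0.0556). Cad passed in 6 of 12 (0.0136 to 0.0868) and Rrp12 in 5 of 12 (0.0158 to 0.0967), and both missed the threshold without WT HSC replicate 2, any MLL-ENL HSC library, WT preGM replicate 1 or WT preGM replicate 3, and Rrp12 also without WT HSC replicate 3. The members with the larger value in preGM then numbered 0 in 6 of these fits, 1 to 2 in 2, and 3 to 5 in the other 4, all without a preGM library, with 5 when MLL-ENL preGM replicate 1 was left out. Without both libraries that stood apart, 25 members had the larger value in preGM (6.74% of all genes) and 1, Npm3, the smaller (5.47%). In that fit the contrasts were -1.35 ± 0.25 for Npm3, 1.27 ± 0.21 for Cad and 1.46 ± 0.24 for Rrp12, and the members' median was 0.68.

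**Figure D4:**
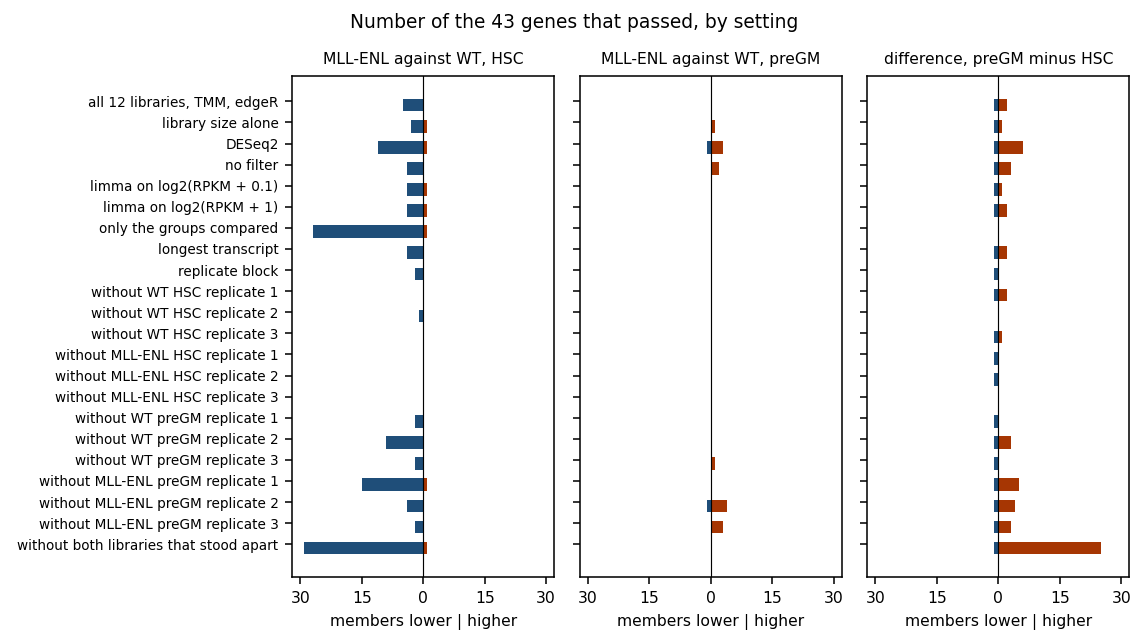
Number of the 43 members called lower (left of 0) and higher (right of 0) in each setting of the analysis, for the MLL-ENL response in HSC, that in preGM, and the difference of these responses. The HSC bar goes from 5 lower with TMM to 3 with library size alone and 29 without both libraries that stood apart, and the difference of responses from 2 higher to 25, with 1 lower in each of these 3 settings.

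In WT cells the module stood higher in preGM than in stem cells, relative to all genes. In WT, 19 of 43 members were higher in preGM and 0 were lower, beside 18.4% and 20.1% of all genes, by the edgeR test with TMM. The members' median log2 difference was 0.79, against -0.03 for all genes. With library size alone 4 were higher (Nhp2, Npm3, Srm and Wdr74; 7.59% of all genes) and 3 lower (Cad, Gar1 and Polr1a; 39.2%), and the median was 0.13 against -0.73. The 19 were 5 of 7 nucleolar organisers, 9 of 14 factors of 60S assembly, 3 of 10 of 40S assembly, Nhp2 and Srm, and none of the C/D core proteins or polymerase subunits. Without both libraries that stood apart, 32 were higher (25.6% of all genes) and 0 lower (25.3%), among them 13 of 14 factors of 60S assembly. Leaving out 1 library gave 16 to 28 higher and 0 lower; 28 passed when MLL-ENL preGM replicate 1 was left out and 27 when it was WT preGM replicate 2.

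Npm3 differed most by adjusted p, from 12.6, 8.88 and 12.4 CPM in WT HSC to 41.7, 49.8 and 37.3 CPM in WT preGM (1.93 ± 0.28, edgeR adjusted p = 5.68e-05; with library size alone 1.22). Srm followed, from 78.8, 77.4 and 97.1 CPM to 225, 376 and 203 CPM (1.67 ± 0.31, edgeR adjusted p = 0.000584; with library size alone 0.93). The H/ACA protein Nhp2 went from 428, 367 and 506 CPM to 1288, 2102 and 1139 CPM (1.80 ± 0.34, edgeR adjusted p = 0.000638; with library size alone 1.07). In these 3 genes every preGM library lay above every HSC library, and WT preGM replicate 2 was the highest.

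Other named members had WT preGM replicate 2 as the lowest of its group. Wdr74, a 60S assembly factor, read 90.4, 98.1 and 88.2 CPM in WT HSC and 341, 163 and 326 CPM in WT preGM (1.58 ± 0.30, edgeR adjusted p = 0.000726). Nop16, another, read 195, 194 and 171 CPM and then 497, 370 and 478 CPM (1.26 ± 0.28, edgeR adjusted p = 0.00241). Rrp9, a protein of the U3 particle that starts 40S processing, read 30.6, 29.7 and 31.7 CPM and then 85.7, 41.3 and 81.5 CPM (1.18 ± 0.26, edgeR adjusted p = 0.00196). Nolc1, a chaperone of snoRNPs, was even across the group, at 121, 110 and 101 CPM and then 276, 238 and 273 CPM (1.25 ± 0.26, edgeR adjusted p = 0.0015). Of the genes followed in every group, Npm1 (1.27 ± 0.32, adjusted p = 0.00577) and Ncl (1.00 ± 0.26, adjusted p = 0.00642) were higher in WT preGM by the edgeR test. Nop56 (0.79), Odc1 (0.56), Dkc1 (0.55), Rrs1 (0.51), Fbl (0.22), Cad (0.01) and Polr1b (-0.13) did not pass. On the library-size scale the values of Odc1, Dkc1, Rrs1, Fbl and Cad were negative (-0.16, -0.10, -0.23, -0.49 and -0.71).

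With MLL-ENL, nearly the whole module was higher in preGM than in stem cells. By the edgeR test with TMM, 40 of 43 members were higher and 0 lower, beside 20.4% and 21.2% of all genes, and the members' median log2 difference was 1.65, against 0.00 for all genes. With library size alone 29 were higher (7.77%) and 0 lower (35.1%), with a median of 1.08 against -0.56. Groups that did not overlap were found with preGM higher for 40 members (25.9% of all genes) and lower for 0 (28.9%); in WT these counts were 25 (23.6%) and 1 (24.8%). On the library-size scale they were 34 (13.1%) and 1 (43.3%) with MLL-ENL, and 6 (10.8%) and 10 (46.9%) in WT. The 3 members that did not pass were Gar1 (0.60 ± 0.28, adjusted p = 0.0978), Bysl (0.29 ± 0.21, adjusted p = 0.283) and Npm3 (0.20 ± 0.27, adjusted p = 0.56), all by edgeR. Leaving out 1 library gave 37 to 41 higher members, and leaving out both libraries that stood apart gave 42 (25.1% of all genes) and 0 lower (26.5%).

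The members with the smallest adjusted p were Nolc1 and Wdr74. Nolc1 read 63.3, 66.4 and 71.5 CPM in MLL-ENL HSC and 456, 236 and 293 CPM in MLL-ENL preGM (2.29 ± 0.27, edgeR adjusted p = 1.01e-05). Wdr74 read 54.3, 64.3 and 48.4 CPM and then 217, 365 and 345 CPM (2.47 ± 0.31, edgeR adjusted p = 2.03e-05). Under TMM every preGM library held over 3 times the highest HSC value of these genes. With library size alone this did not hold, although the groups still did not overlap. Nolc1 then read 85.3, 87.9 and 95.5 CPM in MLL-ENL HSC and 481, 189 and 246 CPM in MLL-ENL preGM. Wdr74 read 73.1, 85.1 and 64.7 CPM and then 229, 292 and 290 CPM. Srm read 36.6, 33.1 and 29.3 CPM and then 98.1, 194 and 202 CPM (2.32 ± 0.32, edgeR adjusted p = 4.32e-05). Nop16 read 122, 128 and 112 CPM and then 317, 664 and 563 CPM (2.09 ± 0.29, edgeR adjusted p = 4.72e-05). Gnl3 read 127, 137 and 132 CPM and then 350, 485 and 461 CPM (1.71 ± 0.24, edgeR adjusted p = 6.42e-05). In Srm, Nop16 and Gnl3 MLL-ENL preGM replicate 1 was the lowest of its group.

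The 60S factors Nip7 (75.8, 80.9 and 64 CPM, then 180, 325 and 296 CPM) and Rrp1b (46.3, 57.8 and 47.2 CPM, then 187, 147 and 178 CPM) were also higher in MLL-ENL preGM, by 1.86 ± 0.27 and 1.76 ± 0.27 on the log2 scale (edgeR, adjusted p = 8.37e-05 and 0.000106). Of the genes followed in every group, Srm (2.32) was followed by Npm1 (2.14), Nop56 (1.77), Ncl (1.65) and Polr1b (1.53) in log2 difference. Dkc1, Cad (1.37), Odc1 (1.11), Rrs1 (1.03) and Fbl (0.72) came next, and all 10 passed. Fbl did so in 3 of 12 fits with 1 library left out. The comparisons of preGM with HSC share no libraries with each other, but each shares its HSC and its preGM libraries with a comparison of MLL-ENL with WT, so the values are given side by side and not counted as separate evidence.

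**Figure D5:**
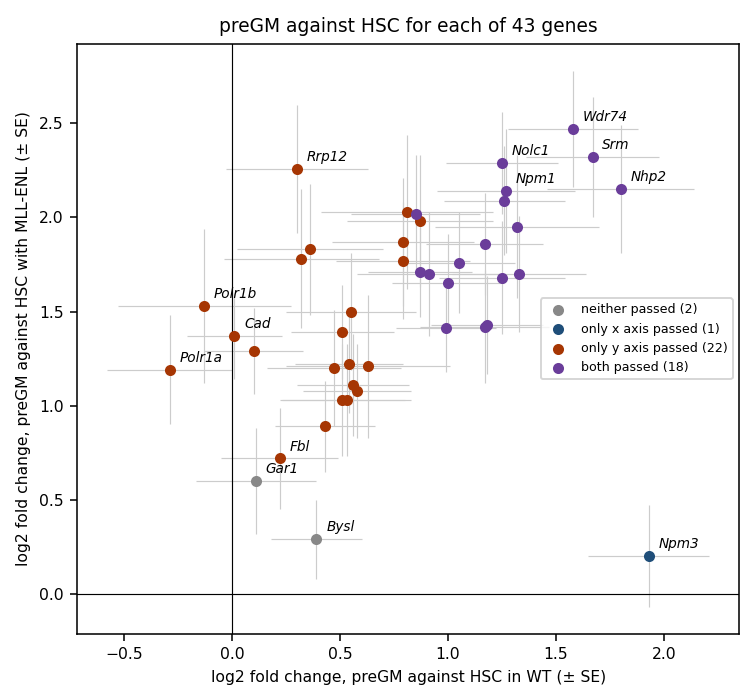
Log2 difference between preGM and HSC in WT (horizontal) and with MLL-ENL (vertical) for the 43 members under TMM, with bars of 1 SE. Of the members, 18 passed in both, 22 with MLL-ENL alone, 1 in WT alone (Npm3) and 2 in neither (Gar1 and Bysl); with library size alone, 20 of the 43 values in WT and 3 with MLL-ENL are negative.

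The members did not vary alike between libraries of 1 group. In WT preGM replicate 2, 15 members stood below 1/1.5 of the mean of the other libraries of the group and 5 above 1.5 times it. The extremes were Nob1, the nuclease that finishes the 40S ribosomal RNA (0.233 times), Ddx56 (0.264) and Grwd1 (0.325) on the low side, and Rrs1 (1.82), Srm (1.75) and Nhp2 (1.73) on the high side. In MLL-ENL preGM replicate 1, 11 members stood above and 13 below, from Polr1b (3.7 times), Mybbp1a (3.04), Nop2 (3.02) and Tsr1 (2.93) to Nhp2 (0.472), Srm (0.496), Npm3 (0.508) and Fbl (0.512). In the 6 HSC libraries, 1 value in all passed either limit. These members were named after their values were seen. The order in MLL-ENL preGM replicate 1 went with the exon bases counted. The 11 members above had a median of 4319 exon bases and the 13 below one of 1756. Across the 43 members, the Spearman correlation between exon bases and this ratio was 0.66 there, and 0.40 across all 15662 genes, given as a description across genes of 1 library. In WT preGM replicate 2 the values were -0.07 and 0.04, and in HSC libraries the members' values lay between -0.22 and 0.27. Between exon bases and the log2 difference over the members, the correlation was 0.40 for MLL-ENL against WT in preGM, 0.50 for the interaction contrast and -0.45 for preGM against HSC in WT, and 0.15, 0.07 and -0.38 when the libraries that stood apart were left out. The part of length in these comparisons was not tested.

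Introns gave a readout of the members that exon counts did not use. Introns that overlap no exon had enough counts for a test in 35 of the 43 members, among 9688 genes. No member passed for MLL-ENL against WT in HSC (0 of 35 in either direction, beside 0.805% of genes higher and 0.165% lower), in preGM (0; 0.939% and 0.341%) or for the interaction contrast (0; 0.124% and 0.155%) by the edgeR test. At an unadjusted p under 0.05 the members numbered 3 higher and 2 lower in HSC, 5 and 0 in preGM, and 6 and 1 for the interaction contrast. The median over members was 0.07 in HSC, against 0.31 for all genes, and 0.44 in preGM, against 0.33. In HSC the exon median of the members was negative while their intron median was near 0, and both lay below that of all genes. For Ncl the intron difference in HSC was -0.39 ± 0.48, for Gnl3 -0.60 ± 0.38 and for Utp20 -0.11 ± 0.43, all within 2 SE of 0. The biological coefficient of variation was 0.501 for introns and 0.32 for exons, so a difference of the size seen in exons was often not detectable at this depth.

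Between cell types, 1 member passed in each comparison by introns. In WT, Tsr1 fell in preGM, from 0.559, 1.13 and 1.35 to 0.209, 0.28 and 0.114 intron CPM (-2.34 ± 0.79, edgeR adjusted p = 0.026), beside 23.3% of genes called lower and 3.72% higher. Tsr1 shares 32.9% of its exon bases with the overlapping gene Srr, and without strand the reads of these genes cannot be told apart. This sharing concerns the exon values of Tsr1, since the introns tested overlap no exon. Its intron levels were low, from 0.114 to 1.35 CPM in these groups. With MLL-ENL, Npm1 was higher in preGM, at 8.94, 7.9 and 5.55 intron CPM against 3.93, 2.51 and 2.23 in HSC (1.37 ± 0.40, edgeR adjusted p = 0.0124), beside 2.35% of genes called higher and 19.9% lower. Npm1 did not pass with library size alone. In WT preGM 9 members were then lower, but the share over all genes is not given for that fit. The count therefore does not show how the members compare with other genes. The members' intron medians were -0.30 in WT and 0.43 with MLL-ENL, against -0.82 and -0.77 for all genes.

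The rest of the pathway was followed through lists that hold none of the 43 genes. Of 31 other factors of 40S assembly, none passed with MLL-ENL in HSC (median -0.33; 0 higher and 11 lower without both libraries that stood apart), and 25 were higher and 0 lower in MLL-ENL preGM than in MLL-ENL HSC (9 and 0 with library size alone). Of 28 other factors of 60S assembly, 2 fell with MLL-ENL in HSC, Noc2l (-0.82 ± 0.22, edgeR adjusted p = 0.0441) and Noc3l (-1.21 ± 0.32, edgeR adjusted p = 0.045), and 0 rose. Both act in the nucleolus on early 60S particles, and neither passed with library size alone. Noc2l read 98.7, 94.4 and 109 CPM in WT HSC and 60, 56 and 55.4 CPM with MLL-ENL. In MLL-ENL preGM 23 of the 28 were higher than in MLL-ENL HSC and 0 lower (9 and 0 with library size alone), with Mrto4 first (2.28 ± 0.26, edgeR adjusted p = 8.93e-06). In WT the same comparison gave 11 of 31 and 7 of 28 higher, and 0 lower in both lists; with library size alone 1 of 31 was higher and 0 lower, and 1 of 28 was higher and 3 lower.

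Of 88 genes tested under the Rpl and Rps symbols and their kin, 2 rose with MLL-ENL in HSC and 0 fell, while their median was -0.51. Those that rose were Rpl13 (1.56 ± 0.40, edgeR adjusted p = 0.0385) and Rps19bp1 (1.13 ± 0.31, edgeR adjusted p = 0.0498), the latter a binding protein and no part of the ribosome. Without both libraries that stood apart, 78 of the 88 were lower and 2 higher. In preGM 0 passed (median -0.73; without both libraries -0.02, with 1 lower). In preGM against HSC 23 were higher and 0 lower in WT, and 14 higher and 1 lower (Rpl13) with MLL-ENL. Scaling by library size alone gave 2 and 0 in WT and 0 and 2 with MLL-ENL.

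Other Pol I machinery (12 genes) and translation factors (14 genes) gave no call for MLL-ENL against WT in either cell type. With MLL-ENL, 4 of 12 and 8 of 14 were higher in preGM than in HSC and 0 were lower, with Cd3eap (1.41 ± 0.25) and Eif3b (1.09 ± 0.21) having the smallest adjusted p. In WT these counts were 2 of 12 and 6 of 14, with 0 lower. Library size alone gave 1 of 12 and 2 of 14 higher with MLL-ENL, and in WT 1 higher and 5 lower of 12 and 0 of 14 in either direction. Of 18 genes of nucleotide and one-carbon synthesis, all 18 were higher in MLL-ENL preGM than in MLL-ENL HSC (12 with library size alone), and 5 of 18 in WT (1 higher and 2 lower with library size alone). Mthfd2, a mitochondrial enzyme of one-carbon metabolism, read 43.9, 37.2 and 45.4 CPM in MLL-ENL HSC and 411, 336 and 370 CPM in MLL-ENL preGM (3.14 ± 0.37, edgeR adjusted p = 1.05e-05). Shmt1 rose with MLL-ENL in preGM (1.20 ± 0.29, edgeR adjusted p = 0.0218), and Nat10, an RNA acetyltransferase of 40S assembly, did too (1.27 ± 0.37, edgeR adjusted p = 0.0475). Nat10 read 152, 44.9 and 46.4 CPM in MLL-ENL preGM and 32.2, 36.3 and 32.1 CPM in WT preGM, so its value rested on replicate 1 (0.50 without both libraries, adjusted p = 0.0771).

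Around the polyamine enzymes, Oaz2, an antizyme that marks ornithine decarboxylase for breakdown, rose with MLL-ENL in both cell types. In HSC it read 14.9, 16.9 and 18.7 CPM for WT and 36.8, 32.3 and 35.9 CPM with MLL-ENL (1.05 ± 0.21, edgeR adjusted p = 0.0102), and in preGM 10.2, 9.64 and 11.6 CPM for WT and 17.8, 22.7 and 18.6 CPM with MLL-ENL (0.91 ± 0.21, edgeR adjusted p = 0.0144). Sat1, which acetylates spermidine for export, fell in preGM from 284, 206 and 254 CPM to 67.2, 94.9 and 90.2 CPM (-1.56 ± 0.26, edgeR adjusted p = 0.00132). Of 10 targets of p53, which rise when the nucleolus is disturbed, 1 rose with MLL-ENL in HSC and 0 fell (2 and 0 with library size alone, 4 and 0 when the libraries that stood apart were left out). This was Btg2, an inhibitor of proliferation, with 11.1, 10.1 and 11.3 CPM in WT and 24.9, 33.4 and 29.2 CPM with MLL-ENL (1.43 ± 0.22, edgeR adjusted p = 0.00156). In preGM 1 rose (Sesn1, 1.60) and 2 fell (Cdkn1a, -1.17, and Bax, -0.91). The counts were 1 and 0 with library size alone, and 0 and 1 when the libraries that stood apart were left out.

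Of 11 genes of the MYC network, 0 passed with MLL-ENL in HSC, and in preGM 1 rose (Mycn) and 1 fell (Mxd3). Between cell types 3 were higher and 3 lower in WT preGM, and 2 higher and 4 lower with MLL-ENL; with library size alone these were 2 and 5, and 0 and 6. In HSC Myc read 112, 135 and 94.2 CPM for WT and 84.9, 86.9 and 90.3 CPM with MLL-ENL (-0.38 ± 0.37, edgeR adjusted p = 0.627). In preGM it read 92.4, 68.4 and 152 CPM in WT and 428, 149 and 165 CPM with MLL-ENL (1.25 ± 0.38, edgeR adjusted p = 0.0593; without both libraries 0.36, adjusted p = 0.392). The high value is that of MLL-ENL preGM replicate 1, the library in which Polr1b, Nop2 and Nat10 were also highest. Srm, Nhp2, Fbl, Odc1 and Npm1 were the lowest of their group in that library. Against the mean of the group's other libraries, 11 members were above 1.5 times there and 13 below 1/1.5. Mycn, the relative of Myc found in stem cells, read 64.5, 68.8 and 70.9 CPM in WT HSC, against 58.3, 45.9 and 52.9 CPM with MLL-ENL, and fell to 0.448, 1.49 and 1.45 CPM in WT preGM (-5.93 ± 0.37, edgeR adjusted p = 1.14e-08). In MLL-ENL preGM it stood at 2.56, 2.8 and 2.4 CPM, above WT preGM (1.21 ± 0.33, edgeR adjusted p = 0.0365). Among the 8 members with CACGTG in the promoter window, the median log2 difference was -0.24 with MLL-ENL in HSC and 0.69 in preGM, and among the 29 without it -0.57 and 0.16. The ranges of these lists overlapped in both comparisons, at -0.95 to 0.29 and -1.01 to 0.87 in HSC, and 0.25 to 1.37 and -0.85 to 1.36 in preGM.

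Other measures also differed between the groups, some in the direction of the members and some not. Of 16 proliferation genes, 0 passed with MLL-ENL in HSC (median -0.51; 12 lower without both libraries that stood apart), and 12 were higher in MLL-ENL preGM than in MLL-ENL HSC and 0 lower (6 and 1 with library size alone). The 9 HSC markers summed to between 591 and 720 CPM in WT HSC and between 941 and 1038 CPM with MLL-ENL, with no overlap, and 3 of them rose (Procr, Mecom and Hoxb5). The summed level of 4 megakaryocyte markers was 579, 600 and 686 CPM in WT HSC, against 150, 194 and 200 CPM with MLL-ENL, ordered from low to high and scaled by library size. That of 6 erythroid markers was 108, 122 and 136 CPM and then 38.9, 41.7 and 43.5 CPM. In WT HSC most of the megakaryocyte sum was Pf4 (mean 560 CPM, against 62.8 with MLL-ENL). Most of the erythroid sum there was Hbb-bt (110 CPM, against 26.5). The lists did not fall as a whole, since mean Vwf went from 49.6 to 114 CPM, Epor from 5.96 to 8.79 and Klf1 from 0.62 to 1.95. By the edgeR test with TMM, 1 megakaryocyte marker was higher and 2 lower, and 0 and 1 of the erythroid markers. The 6 neutrophil markers summed to 2829, 3173 and 3492 CPM in WT preGM and to 18.5, 27.6 and 37.7 CPM in MLL-ENL preGM, where none of them was at 0. The 5 stromal and endothelial markers summed to between 23.8 and 29.7 CPM in WT HSC and between 65.6 and 79.4 CPM with MLL-ENL, and 2 of the 3 tested rose (Apoe and Col1a2). In preGM they reached 120 CPM in the highest MLL-ENL preGM library, against 28.8 and 33.4 CPM in the others. Nearly all of this was Pecam1, at 117, 26.3 and 30.9 CPM in MLL-ENL preGM replicates 1 to 3. Introns per 100 gene counts ranged from 3.73 to 4.11 in WT HSC, from 4.81 to 5.98 with MLL-ENL, and from 1.24 to 3.51 in preGM. The part of other cell types, of proliferation and of RNA quality in the members' differences was not tested.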

How the data were processed

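Each deposited file gives raw read counts, made by the authors per exon, intron and transcript, and RPKM values computed by the authors, per the file headers. The submitters' processing notes name HTSeq, edgeR, Bowtie2 2.1.0 and TopHat2 2.0.8 without role or order. Per the labels, RNA came from RNeasy micro columns and was amplified with the low-input SMARTer kit. Aligner settings and the build were not given in the sources used here; exons matched GRCm38 (77052 of 89664 matched transcripts had identical exons), and coordinates are those of GRCm38, counted from 1. The counts took no account of strand.

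Gene counts were summed here over each gene's non-overlapping exon set with the most bases, and intron counts over introns that overlap no exon. Each gene was fitted with edgeR 4.0.16 and its quasi-likelihood test (R 4.3.3, TMM, robust, all 12 libraries in 1 fit, filterByExpr with a minimum count of 10 and a minimum total of 15), two-sided, with Benjamini-Hochberg adjustment over all 15662 genes and a threshold of 0.05. SE is the absolute log2 difference over the square root of F. The scripts were tested on simulated data. Alternatives were library size alone, DESeq2 1.42.0, no filter, limma 3.58.1 on log2(RPKM + 0.1) and log2(RPKM + 1), the compared groups alone, the longest transcript, a replicate block, each library left out, and both preGM libraries that stood apart left out. Every pair of replicates differed by more than sampling noise.

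Per-library values are given for Ncl, Npm1, Fbl, Nop56, Dkc1, Polr1b, Odc1, Srm, Cad and Rrs1, and for up to 8 further members with the smallest adjusted p under 0.05 in each comparison of MLL-ENL with WT and up to 6 in each other comparison; in other lists, Myc, Mycn and up to 4 such genes. The members, lists and the libraries left out together were chosen with earlier results of these data known. Promoter windows are from RefSeq. The list of ribosomal protein genes was taken by symbol, which brings in Rps19bp1.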

Additional observations from a re-analysis of the deposited data

Results flagged for a closer look

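In 11 of the members and named genes of the pathway lists, cell type markers not counted, the response to MLL-ENL differed between preGM and HSC by the interaction contrast (preGM response minus HSC response, edgeR, adjusted over all genes). Among the members these were Npm3 (-1.72, adjusted p = 0.0181), Rrp12 (1.96, adjusted p = 0.0302) and Cad (1.36, adjusted p = 0.0255), described above. Among related genes, Nat10 gave 2.21 (adjusted p = 0.0259; 1.44 without both libraries that stood apart), Shmt1, a cytosolic enzyme of one-carbon metabolism, 1.81 (adjusted p = 0.0229) and Prps2, which makes the ribose phosphate of nucleotides, 1.29 (adjusted p = 0.0385). Sat1 gave -2.17 (adjusted p = 0.00277), Btg2 -1.94 (adjusted p = 0.00213) and Bax, an effector of cell death, -1.63 (adjusted p = 0.0226). The large subunit protein Rpl13 gave -2.18 (adjusted p = 0.0444) and Rps19bp1 -1.71 (adjusted p = 0.0384). With library size alone Sat1, Btg2 and Bax passed, and Nat10, Shmt1, Prps2, Rpl13 and Rps19bp1 did not (adjusted p = 0.0693, 0.0786, 0.0991, 0.145 and 0.127). In HSC Prps2 read 55.5, 50 and 43.9 CPM for WT and 32.6, 28 and 32.8 CPM with MLL-ENL, and in preGM 49, 41.5 and 50 CPM for WT and 93.3, 58.7 and 62.1 CPM with MLL-ENL, so that the groups of each cell type did not overlap and lay on opposite sides. Bax read 84.6, 81.4 and 112 CPM, 162, 158 and 138 CPM, 380, 454 and 315 CPM, and 146, 232 and 235 CPM in the same order, the reverse pattern.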

How the results depend on the processing

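Counts of called members out of 43 depended on the setting. With MLL-ENL in HSC, 1 member was higher with library size alone, DESeq2, both limma fits, the HSC groups alone and without both libraries that stood apart (0 with TMM); the lower members numbered 3 with library size alone, 11 with DESeq2, 27 with the HSC groups alone and 29 without both libraries. In preGM, 1 was higher with library size alone, 3 with DESeq2 and 2 without a filter, and 1 was lower with DESeq2. For the interaction contrast, 1 was higher with library size alone and with limma on log2(RPKM + 0.1), 6 with DESeq2 and 25 without both libraries. For preGM against HSC in WT, 4 were higher with library size alone, 3 with each limma fit and 32 without both libraries, and the lower ones were 3 with library size alone, 2 with limma at a pseudocount of 0.1 and 1 at a pseudocount of 1. With MLL-ENL, 20 were higher with each limma fit, which like library size alone uses no TMM. Shares over all genes are not given for limma, the fit without a filter, the replicate block or introns with library size alone. Counts from those fits therefore do not show how the members compare with other genes. The sign changed with library size alone in 18 of 43 members for preGM against HSC in WT, 10 for MLL-ENL against WT in preGM and 2 in HSC; among values that then passed the test it turned for Gar1 in WT (0.11 with TMM; -0.62 with library size alone, -0.62 and -0.58 with limma) and Cad in WT (0.01; -0.71 with library size alone). By introns, 1 member (Wdr43) was higher in preGM with library size alone. The promoter share was 2.7% within 100 bases before the start and 48.6% when CACGCG on either strand was also counted (17.2% of all genes). Leaving out 1 library gave 0 to 1 higher and 0 to 15 lower members in HSC, 0 to 4 and 0 to 1 in preGM, 0 to 5 and 0 to 1 for the interaction contrast, 16 to 28 and 0 for WT cell types, 37 to 41 and 0 for MLL-ENL cell types, and by introns 0 to 1 higher in preGM; a lone pair was then assumed to vary like the other groups. Replicate numbers did not pair the samples: over 18 same-numbered pairs the correlation of deviations was -0.105 to 0.101, with 1 over 0.1, and 2 of 12 libraries correlated best with their own number. With the replicate block, 2 members were lower in HSC and 0 higher for the interaction contrast, and the other counts of members by exon counts moved by under 1.5 times. The cause of these shifts was not tested. Every member had at least 196 counts in each library, so counting error limits few values; with 3 libraries a group, the spread between libraries limits the rest.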
